A study of Arabidopsis thaliana with 6 samples.

Results

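At 893 places in the genome of air-grown Arabidopsis seedlings, a ChIP peak of the nuclear protein ENAP1 coincided with a reChIP peak of EIN2 in air and with no reChIP peak in ethylene. These sites were chosen by their peaks: an ENAP1 ChIP peak in air that shares at least 1 bp with a peak of the air reChIP list and none with the ethylene reChIP list. They were 9.19% of the 9712 ENAP1 peaks in air. A further 125 ENAP1 peaks had a reChIP peak in both treatments, 1652 had one in ethylene only and 7042 had none. Since peaks of 3 lists chose the sites, the ENAP1 and reChIP values in air are given as a description. The ethylene ENAP1 list and the positions of genes took no part in the choice.

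Etiolated Col-0 seedlings, 3 days old and raised at 24 °C, received either air free of hydrocarbons or the same air carrying 10 ppm ethylene over 4 hours. The ENAP1 ChIP used an antibody against green fluorescent protein, and the labels describe no transgene. The reChIP took the complexes from that step through a further precipitation with an EIN2 antibody. Each of the 6 groups (ENAP1 ChIP, reChIP and input, in air and in ethylene) held 1 library, so no value has a replicate check and no test between conditions was possible. One label of the ethylene samples gives their treatment as air; their titles and descriptions, which give ethylene, were followed.

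EIN2 is a membrane protein of the endoplasmic reticulum and a central element of ethylene signalling. Without ethylene it is kept inactive by the kinase CTR1; when ethylene binds its receptors, the carboxy-terminal part of EIN2 is released and moves to the nucleus. ENAP1 was found as a nuclear partner of this part of EIN2, and the pair has been linked to histone acetylation at ethylene-responsive genes. A reChIP asks which of the DNA bound by the first protein can also be recovered through the second.

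The reChIP libraries were shallow. After duplicates were removed, 644263 tags remained in the air reChIP and 304818 in the ethylene reChIP, against 8400099 in the air ENAP1 ChIP and 8811720 in the ethylene ENAP1 ChIP; duplicates made up 84% and 83% of the reChIP tags. A single control library served for both lists in air. The ethylene reChIP was instead called against the air reChIP library, so a site with many air reChIP tags had a higher bar to appear in the ethylene list. Absence from that list means no called gain over air, and not absence of EIN2 in ethylene. Because the reChIP started from ENAP1-precipitated DNA, EIN2-bound DNA and DNA carried over from the first precipitation cannot be told apart in these lists.

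The reChIP signal at the sites was weak. The median height of the air reChIP peak was 5 tags (interquartile range 4 to 7, lowest 3, highest 146), 50.5% of the sites rested on 5 tags or fewer, and 97.2% on 10 or fewer. The median fold enrichment over the local control was 3.49 (2.08 to 52.5). A q-value of 0.05 or lower, the caller's own adjusted value, was reached by the reChIP peak at 296 sites (33.1%), a −log10 q of at least 3 at 48 (5.38%) and of at least 5 at 10 (1.12%). The ENAP1 peaks themselves were firmer: 97.0% had a q of 0.05 or lower, and the median fold was 3.49 (1.27 to 14.2), beside 2.69 over all air ENAP1 peaks. ENAP1 fold and reChIP fold were only loosely related across the sites (Spearman's rho 0.164, Pearson's r of log2 folds 0.167, n = 893; the points share both libraries and their control).

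**Figure D1:**
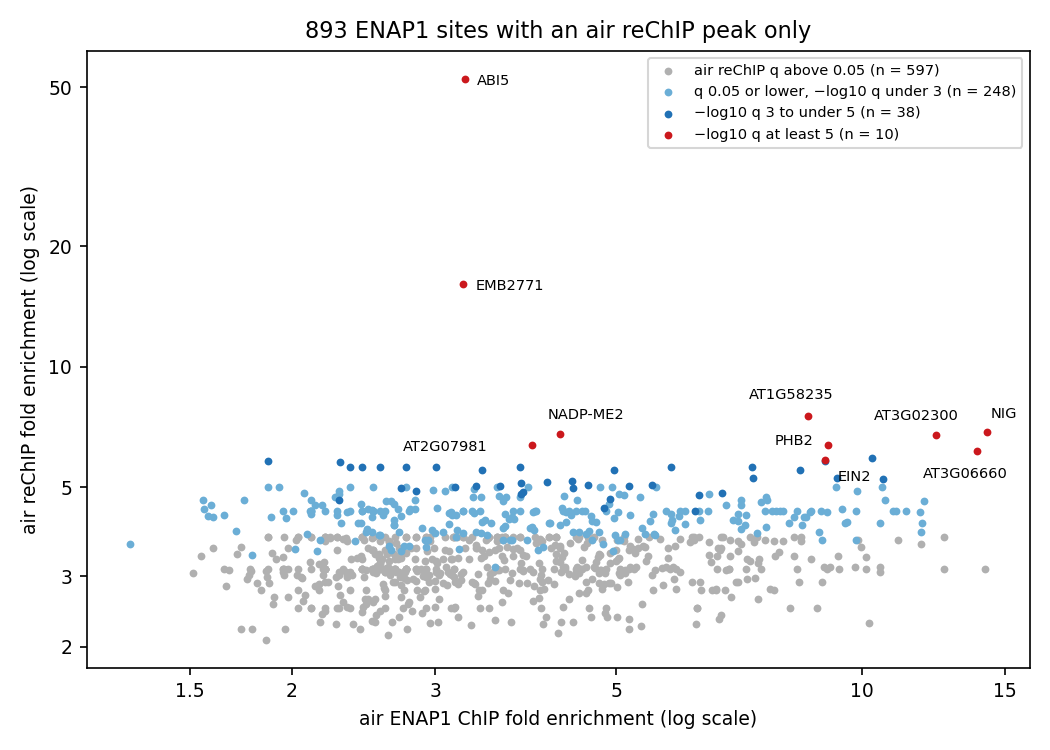
Each point is 1 of the 893 sites, with ENAP1 ChIP fold in air on the horizontal axis and air reChIP fold on the vertical axis, both on log scales, coloured by the reChIP q-value. ABI5 and EMB2771 stand above a broad band in which sites of any ENAP1 fold have reChIP folds of about 2 to 8.

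The highest reChIP signal lay in ABI5 (AT2G36270), whose product is a bZIP transcription factor of abscisic acid signalling that arrests growth after germination. Its air reChIP peak (2:15206195-15207450) reached 146 tags and 52.5-fold enrichment. The control library stood at 2.72 times the median of its list under this reChIP peak, and its part was not tested. The ENAP1 peak there (2:15207330-15207558) was moderate, with an enrichment of 3.26 in air and of 2.38 in ethylene. The reChIP peak was 1256 bp wide, shared only 121 bp with the ENAP1 peak, and its summit lay 1102 bp from the ENAP1 summit.

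The next lay in EMB2771 (AT5G05560), which encodes a subunit of the anaphase-promoting complex, a ubiquitin ligase of the cell cycle. There the air reChIP peak (5:1640104-1640552) had 63 tags and 16.1-fold enrichment, the ENAP1 peak (5:1640520-1640947) was 3.24-fold in air and 2.68-fold in ethylene, and the peaks shared 33 bp with summits 271 bp apart. The control library was also raised under this reChIP peak, at 4.48 times the median of its list, and its part in the result was not tested. At both genes the reChIP signal was thus centred away from ENAP1, and neither site met a limit of 100 bp between summits.

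The other 8 sites with a −log10 q of at least 5 had far lower reChIP peaks, from 5.86- to 7.56-fold and from 10 to 14 tags. Most of them carried strong ENAP1 peaks. NIG (AT4G13350; 4:7773537-7773925), which encodes a GTPase that interacts with a viral nuclear shuttle protein, had the highest ENAP1 fold of all 893 sites, 14.2 in air, with 9.67 in ethylene and 6.87 in the air reChIP; its ENAP1 and reChIP summits fell on the same base. AT3G06660 (3:2102137-2102573) had 13.8-fold ENAP1 enrichment in air, 15.6 in ethylene and 6.18 in the air reChIP, with summits 6 bp apart. AT3G02300 (3:460983-461463) had 12.3, 9.75 and 6.76. Its summits lay 211 bp apart, so this site did not meet the limit of 100 bp either.

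Beside PHB2 (AT1G03860; 1:978639-979412), a gene for the mitochondrial scaffold protein prohibitin, ENAP1 was 9.10-fold in air and 13.6-fold in ethylene, and the air reChIP 6.40-fold, with summits 11 bp apart. AT1G58235 (1:21579704-21580118) had 8.58-fold ENAP1 enrichment in air, 7.72 in ethylene and 7.56 in the air reChIP, with summits 10 bp apart. NADP-ME2 (AT5G11670; 5:3754178-3754672), which encodes an NADP-dependent malic enzyme, had 4.27, 4.76 and 6.81, with summits 48 bp apart. AT2G07981 (2:3616816-3617009) had 3.94-fold ENAP1 enrichment in air and 6.38 in the air reChIP, with summits 62 bp apart. Under its reChIP peak the control library stood at 2.04 times the median of its list, and its part was not tested. Alone among these 10 sites, AT2G07981 had no ENAP1 peak in ethylene.

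EIN2 itself (AT5G03280) was among them. A 760 bp ENAP1 peak 248 bp outside the gene (5:793303-794062) had 9.03-fold enrichment and 216 tags in air (after the caller's scaling to its control), the tallest ENAP1 peak of the 893 sites, and 5.50-fold in ethylene. The air reChIP peak inside it (5:793568-793773) had 13 tags and 5.86-fold enrichment, with summits 14 bp apart. The nearest ethylene reChIP peak was 190 bp away. Within the gene, the ENAP1 peaks of 1.89- and 1.94-fold lay under the broad 34.6-fold air reChIP peak and also overlapped an ethylene reChIP peak of 4.69-fold, so they were not counted among the 893. The ENAP1 gene (2.01-fold ENAP1 peak) likewise had reChIP peaks in both treatments (10.4-fold in air, 1.91-fold in ethylene). Under that ENAP1 peak the control library was high, at 6.14 times the median of its list, and its part was not tested. The ethylene reChIP folds were taken over the air reChIP library, so they cannot be compared with the air reChIP folds. The main ENAP1 peak of the receptor gene ETR2 (13.6-fold) had a reChIP peak in ethylene only, and EIN3 had no air ENAP1 peak.

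**Figure D2:**
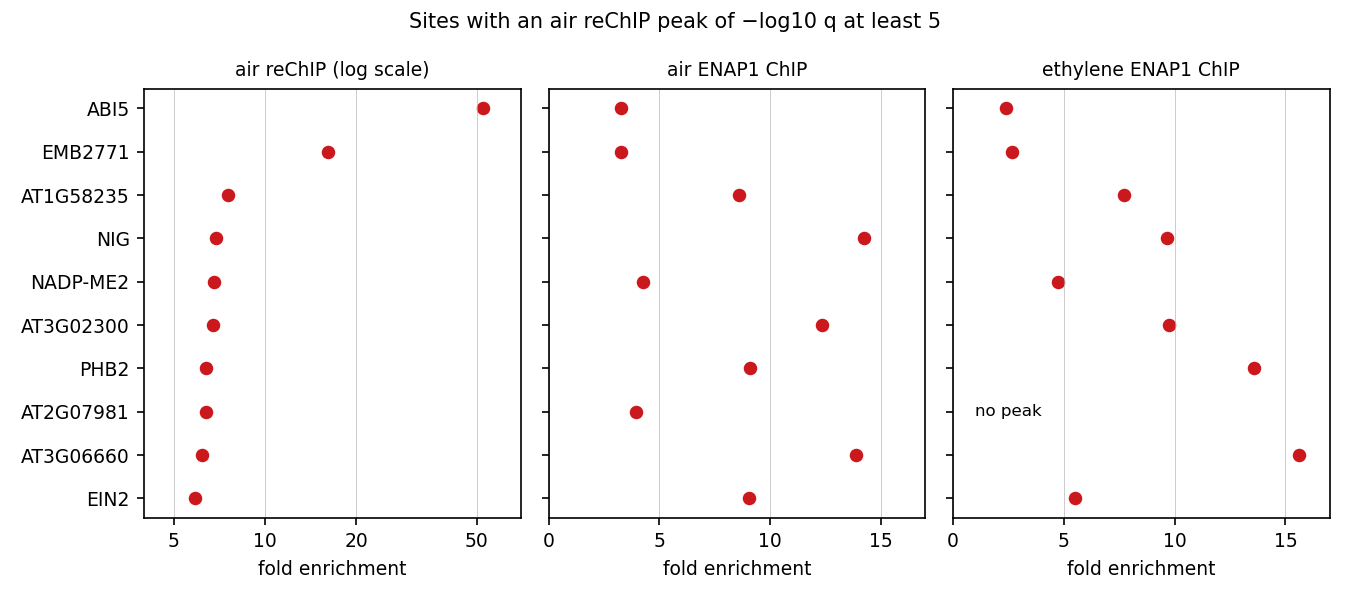
Fold enrichment at the 10 sites whose air reChIP peak had a −log10 q of at least 5, in the air reChIP (log scale), the air ENAP1 ChIP and the ethylene ENAP1 ChIP, 1 library each; folds are comparable only within a panel. ABI5 and EMB2771 lead the reChIP panel with low ENAP1 folds, NIG leads the air ENAP1 panel and AT3G06660 the ethylene one, and AT2G07981 has no ethylene ENAP1 peak.

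Sites further down the reChIP order were ranked by very few tags. In rank 15, 8 sites tied at 8 tags and 5.62-fold, where the control was equally low. They included HK2 (AT5G35750), a cytokinin receptor gene (ENAP1 2.76-fold in air), the phosphatase gene PEN2 (3.00-fold) and PDF1.2 (AT5G44420), a defensin gene used as a marker of combined ethylene and jasmonate responses (2.57-fold, 1105 bp away), none of which had an ethylene ENAP1 peak. The tied site nearest to SAUR15, an auxin-induced gene, lay 845 bp away, with 2.36-fold ENAP1 enrichment in air and 2.60 in ethylene. Those at BRG2 (7.33-fold), AT4G17505 (5.83-fold), AT1G75510 (3.81-fold) and AT1G11270 (2.44-fold) also kept an ENAP1 peak in ethylene. Above the tie stood AT4G29890 (ENAP1 10.3-fold, reChIP 5.93-fold), AT3G27420 (9.01- and 5.81-fold), AT4G22750 (1.87- and 5.81-fold, with no ethylene ENAP1 peak) and the MADS-box gene AGL78 (reChIP 5.77-fold).

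The 10 sites with the highest ENAP1 fold had reChIP peaks from 3.12- to 6.87-fold. Of these, 6 reached a reChIP q of 0.05 or lower, and 3 (NIG, AT3G06660 and AT3G02300) a −log10 q of at least 5. After NIG came NUDT5 (AT2G04430; 14.2-fold in air, 11.6-fold in ethylene), a Nudix hydrolase gene whose reChIP peak held 4 tags. Next to AT3G06660 and AT3G02300 stood AT3G30380 (12.6-fold in air, 8.88-fold in ethylene) and Hrd1A (12.6- and 10.5-fold), which encodes a ubiquitin ligase of protein quality control at the endoplasmic reticulum. AT3G27220, AT3G57170, AT4G13992 and AT2G32970 had ENAP1 folds of 11.9, 11.9, 11.8 and 11.8 in air. All 10 overlapped an ethylene ENAP1 peak, and 8 had a summit at most 200 bp inside a gene.

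Most air reChIP peaks were not at ENAP1 peaks: 8135 of the 9174 overlapped none, with a median of 5 tags and 3.12-fold enrichment, against 5 tags and 3.46-fold for the 911 reChIP peaks at the sites. A q of 0.05 or lower was reached by 17.6% of the former and 32.6% of the latter, with median widths of 119 and 136 bp. At the sites themselves, the reChIP peak lay wholly inside the ENAP1 peak at 550 sites (61.6%), and the summits were at most 50 bp apart at 426 (47.7%) and at most 100 bp apart at 632 (70.8%), with a median of 54 bp. The requirement to overlap favours short distances, so these values are a description. At the limit of the rule, 15 sites shared 10 bp or less, the shortest being 1 bp at BON2 (ENAP1 3.23-fold, reChIP 3.04-fold) and 2 bp at AT2G22760, SIP4 and AT5G02230. The ENAP1 peaks at BRK1 (1.95-fold), MDHAR (2.74-fold) and LETM1 (3.27-fold) missed an air reChIP peak by 1 bp. An ethylene reChIP peak lay within 500 bp of 62 sites (6.94%). The rule leaves out peaks that overlap one, and the same share was not computed for other ENAP1 peaks.

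**Figure D3:**
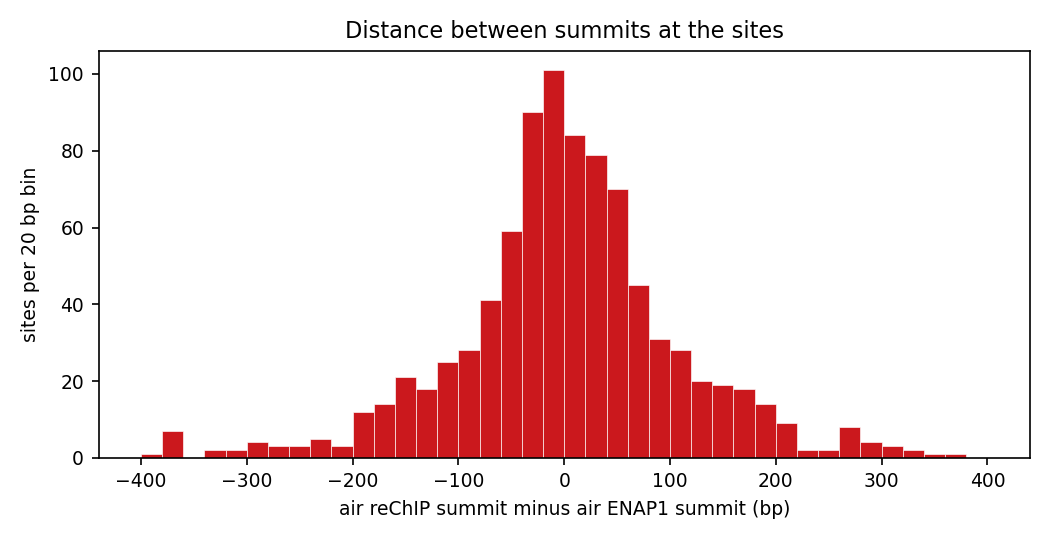
Number of sites by the distance in bp from the air ENAP1 summit to the air reChIP summit, in bins of 20 bp; distances over 400 bp, as at ABI5, are outside the axis. The distances centre on 0, with 101 sites in the bin just below it and 84 in the bin just above.

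ENAP1 remained detectable at most of these sites in ethylene. An ethylene ENAP1 peak, called against another control library, overlapped 742 of the 893 (83.1%, exact binomial 95% interval 80.5 to 85.5), where 72.3% of all air ENAP1 peaks did. Where it did, its summit lay a median of 17 bp from the air summit (interquartile range 9 to 34.8), and its median fold was 3.80. The share was 67.2% (66.1 to 68.3) for ENAP1 peaks with no reChIP peak and 86.2% (84.4 to 87.8) for those with a reChIP peak in ethylene only. For the 125 peaks with a reChIP peak in both treatments it was 97.6% (93.1 to 99.5). Such intervals cover counting error only, and peaks of 1 library are not replicates of a condition.

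ENAP1 fold moved with this share. The 151 sites with no ethylene ENAP1 peak had a median air fold of 2.36, and the other 742 a median of 3.92. Sorted into quintiles of air ENAP1 fold, the sites overlapped an ethylene ENAP1 peak in 45.8% (lowest quintile, n = 83), 52.0%, 75.3%, 90.9% and 99.7% (highest quintile, n = 363) of cases; peaks with no reChIP peak did so in 46.6%, 50.8%, 66.3%, 87.4% and 99.4%. With the latter class weighted to the sites' quintiles, its share was 80.6%, and the difference narrowed from 15.9 percentage points (13.1 to 18.5) to 2.52. Weighting by peak width instead left 6.60 percentage points. Peaks with an ethylene reChIP peak only stood at 59.4%, 78.4%, 85.1%, 96.8% and 99.6%. Their share was above that of the sites in every quintile but the highest. In the second quintile the intervals did not overlap (72.4 to 83.6 against 41.8 to 62.0). Overlap of intervals in the others does not show that the shares were equal.

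**Figure D4:**
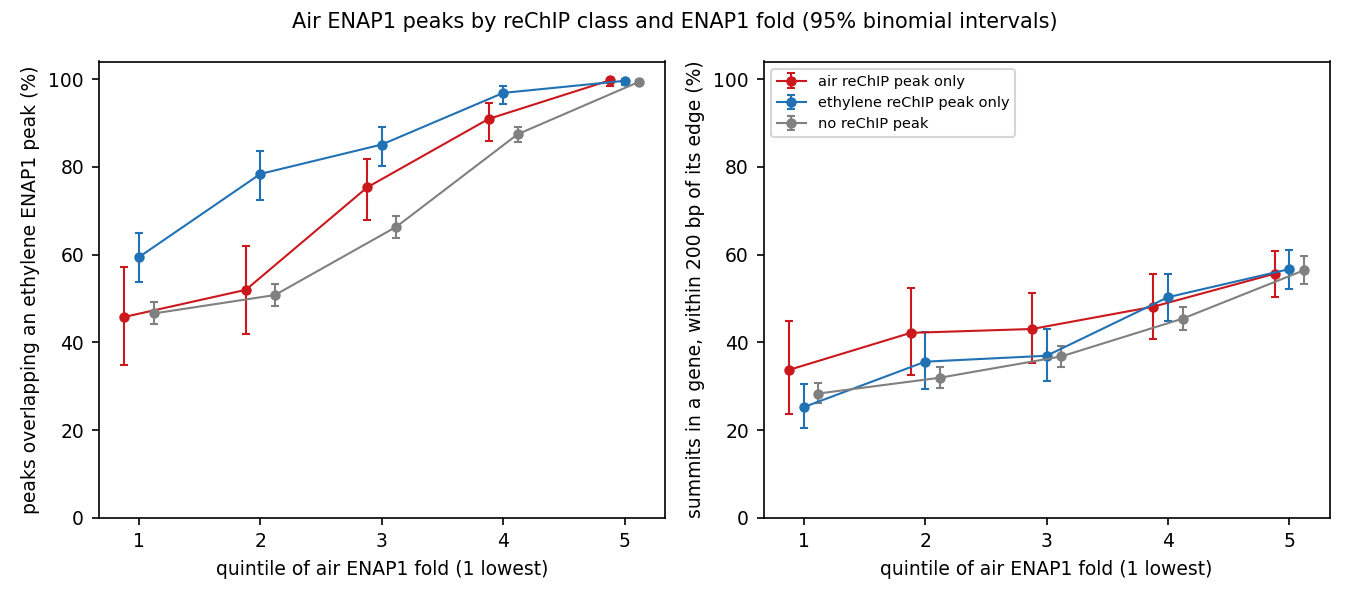
Share of air ENAP1 peaks that overlap an ethylene ENAP1 peak (left) and whose summit lies at most 200 bp inside a protein-coding gene (right), by quintile of air ENAP1 fold, for 3 reChIP classes, with exact binomial 95% intervals. In the top quintile the classes meet at 99.4 to 99.7% on the left and at 55.6 to 56.7% on the right.

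Many of the sites lay just inside genes. A summit at most 200 bp inside a protein-coding gene, counted from its nearer end, was found at 431 sites (48.3%, 44.9 to 51.6), against 40.1% of all air ENAP1 peaks, 38.2% (37.1 to 39.4) of those with no reChIP peak and 43.3% (40.9 to 45.8) of those with an ethylene reChIP peak only. For the 125 peaks with a reChIP peak in both treatments the share was 44.8% (35.9 to 54.0). Gene starts and ends were not told apart, since strand was not used here. Here too ENAP1 fold moved with the share: weighting to the sites' quintiles of fold brought the difference from peaks with no reChIP peak from 10.0 percentage points (6.57 to 13.5) to 3.03. Weighting by peak width left 8.98.

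Summits lay inside a protein-coding gene, at any depth, at 74.5% of the sites (71.5 to 77.3), close to the 72.3% of all air ENAP1 peaks and above the 69.2% (68.1 to 70.3) of those with no reChIP peak. The class with a reChIP peak in ethylene only was higher, at 83.9% (82.0 to 85.6), and the class with one in both treatments stood at 80% (71.9 to 86.6). Summits deeper than 500 bp inside a gene made up 8.06% of the sites (6.36 to 10.0), 10.2% of all air ENAP1 peaks, 9.44% (8.77 to 10.2) of those with no reChIP peak and 14.3% (12.7 to 16.1) of the ethylene-only class. The control level under the ENAP1 peak also differed, with a median of 12.4 tags at the sites, 21.5 at ethylene-only peaks and 13.0 at peaks with no reChIP peak; its part in these differences was not tested. No protein-coding gene lay within 1000 bp of 51 sites (5.71%), against 7.16% of all air ENAP1 peaks. Noncoding annotation was rare: 30 summits (3.36%) lay in long noncoding RNA genes and 7 (0.784%) in pseudogenes, close to the 3.47% and 0.741% of all air ENAP1 peaks. The chromosomes held between 14.4% (chromosome 4) and 25.3% (chromosome 5) of the sites, where they held 15.2% and 23.7% of all air ENAP1 peaks.

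**Figure D5:**
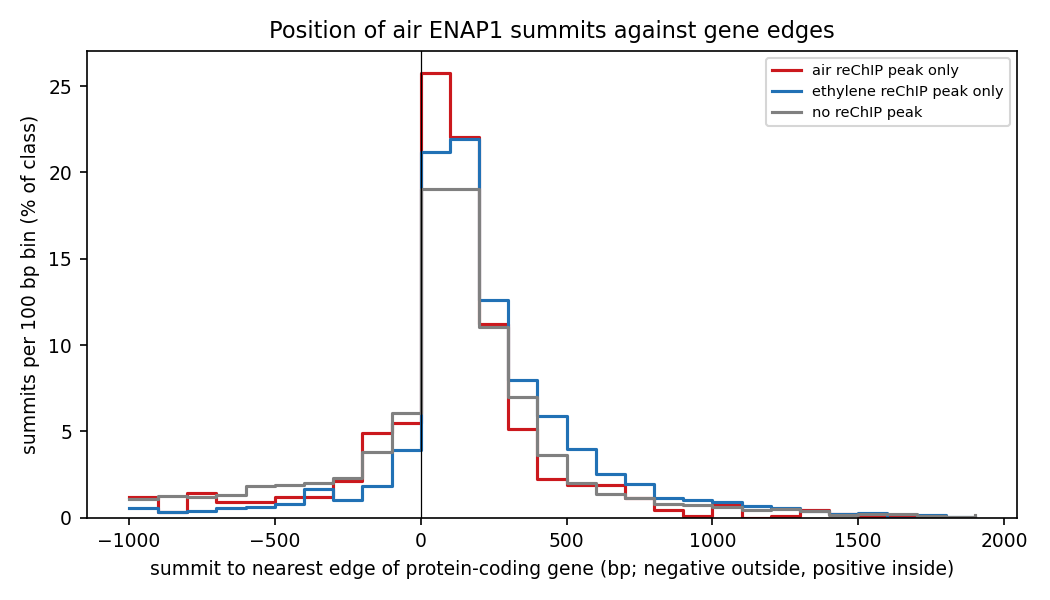
Share of ENAP1 summits per 100 bp bin against the distance to the nearest edge of a protein-coding gene (negative outside, positive inside) for 3 reChIP classes. The sites with an air reChIP peak only peak in the first 100 bp inside the gene, with 25.8% of summits, against 21.2% for ethylene-only peaks and 19.0% for peaks with no reChIP peak.

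With a target defined as a protein-coding gene that has a site's summit inside it or within 1000 bp, the 893 sites had 1261 target genes, 4.59% of the 27444 protein-coding genes. One site could serve several genes: 443 sites had 1 target, 365 had 2 and 34 had 3 or more. Of the 1261 genes, 1139 (90.3%) were also ENAP1 targets in ethylene, against 36.4% of all protein-coding genes. Every target of a site is by construction an ENAP1 target in air, as 38.6% of protein-coding genes were, so these shares do not compare like with like. How many of all air ENAP1 target genes were also targets in ethylene was not computed.

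Each of the ethylene gene lists had 1 target, and such counts are not read as a result about ethylene genes. Of 19 receptor and signalling genes only EIN2 was a target, while 12 were ENAP1 targets in air through any peak; of all air ENAP1 target genes, 11.9% were targets of the sites. Peaks with an ethylene reChIP peak only, the larger class, had 5 of the 19 as targets and 8.46% of all protein-coding genes. Of 16 ethylene response genes the 1 target was PIF3 (AT1G09530), a light-signalling transcription factor gene that ethylene acts on in hypocotyl growth, with an ENAP1 peak of 2.84-fold in air, none in ethylene and 4 reChIP tags. Of 16 ethylene synthesis genes it was ACS6 (AT4G11280), which encodes an ACC synthase, with 3.51-fold ENAP1 enrichment in air, 2.77 in ethylene and a reChIP peak of 6 tags and 4.07-fold. These shares, 5.26%, 6.25% and 6.25%, are near the 4.59% of all genes.

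Of 21 abscisic acid signalling genes 3 were targets (14.3%). Besides ABI5 they were ABF1 (AT1G49720), a related bZIP factor gene, with 2.12-fold ENAP1 enrichment 933 bp outside the gene, and PYL8 (AT5G53160), a receptor gene, with 5.26-fold in air and 6.88-fold in ethylene; their reChIP peaks held 5 and 4 tags with q above 0.05. Of 18 abundantly transcribed housekeeping genes 3 were targets (16.7%): the actin genes ACT8 (ENAP1 9.87-fold in air, 5.39 in ethylene; reChIP 7 tags, 4.91-fold) and ACT2 (6.96, 7.28; 6 tags, 4.14-fold) and the tubulin gene TUA2 (3.84, 2.72; 6 tags, 3.10-fold). The TUA2 summit lay 403 bp outside that gene, nearer to AT1G50000. Both shares rest on 3 genes, and nothing particular to either list is read from them.

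The remaining lists had at most 1 target. The auxin list (23 genes) had PIN2 (AT5G57090), an auxin efflux carrier gene of the root, where a 2.73-fold ENAP1 peak lay 2287 bp inside the gene. Among 21 histone acetylation and chromatin genes stood HD2A (AT3G44750), a plant-type histone deacetylase gene, with a weak ENAP1 peak (1.75-fold in air, 2.22 in ethylene) and a reChIP peak of 7 tags and 4.64-fold; this summit also lay inside the overlapping gene AT3G44740. The 10 trihelix genes, the family of ENAP1, had ASIL1 (AT1G54060), a repressor gene of seed maturation, with a 2.11-fold ENAP1 peak whose summit lay 351 bp outside the gene and nearer to AT1G54070. None of the 16 light signalling and 18 photosynthesis genes was a target. Over all lists, 12 of 178 genes (6.74%) were targets.

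Families counted by the start of the gene symbol had few targets, from 0% to 13.0% of their genes. Of all protein-coding genes 4.59% were targets, and of air ENAP1 target genes 11.9%. Numbers this small are not read as a result about any family. Syntaxin genes, whose products guide membrane fusion, had 3 of 23: SYP23 (ENAP1 10.5-fold in air, 10.1 in ethylene; reChIP 6 tags), SYP61 (8.90, 6.98; 6 tags) and SYP52 (2.60, 2.83; 5 tags). Aux/IAA repressor genes of auxin signalling had 3 of 24, IAA31, IAA34 and IAA28 (5.19-, 4.60- and 4.30-fold in air, each with 4 reChIP tags). The WRKY transcription factor genes had 2 of 67, WRKY46 (4.76-fold) and WRKY38 (4.30-fold). Cytochrome P450 genes had 5 of 229, led by CYP707A3 (7.04-fold in air, 8.06 in ethylene), which encodes an enzyme that breaks down abscisic acid, and MYB genes had 1 of 123. No gene named ERF (25), CIPK (21), CPK (29), XTH (30) or RPL (22) was a target.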

How the data were processed

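Alignment used BWA and the genome build was TAIR10, per the submitters' processing notes. Per the file headers, MACS2 2.1.0.20150603 set each library against 1 control, with a p cutoff of 0.01 and 1 tag kept per position. For each peak the authors deposited the summit's pileup (a signal, in tags), its fold enrichment (a ratio to the local control) and the −log10 of p and of q. The headers announce no q-values, but the column holds them. In the reChIP lists the tags are unscaled, because each reChIP library was smaller than its control; ENAP1 tags had been scaled down to the control.

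Overlaps of 1 bp or more were found with Python 3.11.15, and the code was checked on simulated peaks. Where several reChIP or ethylene ENAP1 peaks met a site, the one with the highest fold is given. Control level was (pileup + 1) / fold − 1, and high meant 5 times the list median. Genes came from a RefSeq table of TAIR10.1, used for names and distances; its coordinates are not printed. A summit in several genes was assigned to the one in which it lay deepest. Of 183 list symbols, 5 had no single match; for ACO3 the table gives only an aconitase of the same symbol. Sites and lists were chosen with earlier results of these data known. Named sites are the 20 highest in reChIP fold with ties, those with reChIP −log10 q of at least 5, the 10 highest in ENAP1 fold, members of the gene lists, EIN2, ENAP1, ABI5, EIN3 and ETR2, and sites at the limit of the rule; members of gene families and the genes under other observations were named after their values were seen. Planned promoter motif searches were not made, since no sequence was used here. Medians and shares have exact binomial 95% intervals that cover counting error only; differences of shares have Newcombe intervals.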

Additional observations from a re-analysis of the deposited data

How the results depend on the processing

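No paired analysis was possible because each group held 1 library. Of 80 recomputed values, 39 stayed within 1.5 times the count or within the interval of the reported value, and 41 moved. Only the differences weighted by quintile could change direction, and 0 of them did. Those weightings were added after seeing the data. The number of sites and of target genes fell to 250 and 345 with an overlap of at least 50% of both peaks, to 296 and 432 with reChIP q of 0.05 or lower, to 48 and 69 with reChIP −log10 q of at least 3, and to 10 and 15 with at least 5. Limits on overlap and on summits were applied to the ethylene exclusion as well, so sites under them need not be among those reported. Counting the nearest gene only gave 836 targets. The share with an ethylene ENAP1 peak was 73.2% with 50% overlap, 86.1% with reChIP q of 0.05 or lower, 90% with reChIP −log10 q of at least 5, and 95.8% for ENAP1 −log10 q of at least 5. The share just inside a gene edge was 52.7% for reChIP q of 0.05 or lower, 56.2% for −log10 q of at least 3, 30% for at least 5 and 52.0% for ENAP1 −log10 q of at least 5; limits of 100 and 500 bp gave 26.3% and 66.4%. The median ENAP1 fold was 2.95 (50% overlap), 3.66 (reChIP summit inside the ENAP1 peak), 3.70 (summits within 100 bp), 3.82, 4.42 and 8.81 (the 3 reChIP q limits), 4.24 (ENAP1 limit) and 3.67 (no exclusion by the ethylene list). The median reChIP pileup was 7, 9 and 11 tags under the 3 reChIP q limits. A high control level was found at 0.112% of sites, at 1.46% with a limit of 3 times the median, and at 0% with 10 times, with 50% overlap, summits within 100 bp, reChIP −log10 q of at least 3 or 5, ENAP1 −log10 q of at least 5, or such peaks left out. The differences from peaks with no reChIP peak fell to 2.52 (ethylene ENAP1 peak, by fold), 6.60 (by width) and 3.03 percentage points (gene edge, by fold). Of the sites, 50.5% rest on 5 reChIP tags or fewer; the effect of depth on the counts was not tested.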

Other observations

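Some further target genes were picked after their names and values had been seen, so they show nothing about the groups they belong to. For scale, 4.59% of all protein-coding genes and 11.9% of air ENAP1 target genes were targets of the sites. Of 10 genes named JAZ, whose products repress jasmonate signalling, 3 were targets, JAZ6 (ENAP1 4.03-fold in air, 5.20 in ethylene), JAZ11 (2.62, 2.22) and JAZ1 (1.74, 1.74; the summit lay nearer to AT1G19190). MYC2, the transcription factor that JAZ proteins hold back, had 3.32-fold ENAP1 enrichment in air and 3.22 in ethylene, with 10 reChIP tags. Of 6 lipoxygenase genes LOX4 (4.22, 2.49; nearer to AT1G72530) and LOX6 (2.29, 1.89; 9 reChIP tags and 4.81-fold) were targets. The kinase genes MKK9 (2.22-fold in air, 10 reChIP tags) and MPK3 (3.71- and 3.30-fold at its 2 sites) were also present. Other gene names counted in this way had targets too: 3 of 18 MPK, 1 of 9 MKK, 3 of 11 ADF and 3 of 23 EXO70 genes.

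Single genes picked in the same way were SEF (ENAP1 7.35-fold in air, 4.14 in ethylene; reChIP 10 tags, 5.29-fold), a subunit gene of the SWR1 chromatin remodelling complex, DRM2 (7.01, 8.45; 4 tags), a DNA methyltransferase gene, and the nuclear exoribonuclease gene XRN3 (4.07, 3.84; 6 tags). TOC1, a gene of the circadian clock, had 8.93-fold ENAP1 enrichment in air, 11.5 in ethylene and a reChIP peak of 7 tags and 3.69-fold. The cytokinin activation genes LOG7 (2.76-fold in air, no ethylene ENAP1 peak; 7 reChIP tags) and LOG2 (5.66, 3.22; 5 tags) were among 10 genes of that name. Of these reChIP peaks, only those at LOX6, SEF, LOG7 and TOC1 had a q of 0.05 or lower. Another site had JAZ6 as its nearest gene but lay 1289 bp away, beyond the limit for a target. Its reChIP peak had 8 tags, 4.97-fold enrichment and a −log10 q of 3.03.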
